A study of Mus musculus with 4 samples.

Results

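The 10 genes described here handle cellular iron: Fth1, Ftl1, Trf, Tfrc, Slc40a1, Slc11a1, Slc11a2, Hmox1, Ireb2 and Aco1. They were picked by symbol from a list of iron genes, with earlier results of these data known, and all 10 were among the 24442 genes of the count table and among the 11661 genes with enough counts to test. RNA was sequenced from mammary gland cells of female mice, 5 weeks old, that carry Lgr6-eGFP-CreErt2, a green fluorescent reporter joined to an inducible Cre recombinase and driven by Lgr6. Lineage-negative cells were sorted into those positive and those negative for Lgr6, and 2 libraries per population (4 in all) were sequenced. Both populations came from the same kind of gland digest, with red cells lysed before the sort, and no treatment is stated. Which lineage markers were used, and how Lgr6-negative cells were gated, is not given in the labels. The protocol attached to the Lgr6-negative libraries describes a sort for Lgr6-positive cells too, so their population is known only from their titles and sample fields. Whether replicates came from separate animals is not labelled, so a p-value reflects only how far these libraries spread, which may be technical.

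Iron enters most cells bound to transferrin, which the transferrin receptor carries into endosomes, where SLC11A2 moves the released ferrous iron into the cytosol. Iron not in use is stored inside ferritin, a shell of heavy and light chains, and leaves cells mainly through ferroportin, the product of Slc40a1. Haem oxygenase 1 frees iron from haem, and macrophages use it, ferritin and ferroportin to recycle iron from red cells. The iron regulatory proteins encoded by Aco1 and Ireb2 bind hairpins in mRNAs when iron is scarce, which blocks translation of ferritin and ferroportin and protects the Tfrc mRNA from decay. Mammary epithelium also makes transferrin and secretes it into milk.

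Hairpins of the kind bound by iron regulatory proteins were found in 4 of the 10 genes by a sequence search. They are shown because control through ferritin's hairpin acts on translation and would not be seen in counts of RNA. One transcript per gene from GENCODE M21 (build GRCm38) was searched on its own strand for the loop CAGTG followed by a base other than G, closed by 5 paired bases on either side (G-U pairs allowed) below which an unpaired C bulges on the 5′ side. Each site is given as 29 bases, 5′ to 3′, with T for U and the loop in capitals.
Fth1, 5′ UTR, chr19:9982732-9982760, plus strand: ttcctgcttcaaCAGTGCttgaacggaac
Ftl1, 5′ UTR, chr7:45459779-45459807, minus strand: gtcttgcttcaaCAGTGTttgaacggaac
Slc40a1, 5′ UTR, chr1:45925465-45925493, minus strand: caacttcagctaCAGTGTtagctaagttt
Tfrc, 3′ UTR, chr16:32631219-32631247, plus strand: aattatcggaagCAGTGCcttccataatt
Tfrc, 3′ UTR, chr16:32631598-32631626, plus strand: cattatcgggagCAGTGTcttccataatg
Tfrc, 3′ UTR, chr16:32631663-32631691, plus strand: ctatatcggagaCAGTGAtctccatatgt
Tfrc, 3′ UTR, chr16:32631710-32631738, plus strand: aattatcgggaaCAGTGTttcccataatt
The Fth1 and Ftl1 sites were identical at 26 of 29 bases, whereas the Fth1 and Slc40a1 sites shared 13. Among 21745 protein-coding genes searched, 18 (0.0828%) held a match in the 5′ UTR and 78 (0.359%) in the 3′ UTR. The other 6 genes had no match in the transcript searched, which for Slc11a2 was one of several forms with different 3′ ends. Hairpins that depart from this pattern or lie in other transcripts would be missed, so the sites listed may not be all.

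Sequencing depth was similar: Lgr6-positive libraries held 6819127 and 6995568 counts, and Lgr6-negative libraries 6920996 and 7167465. The ribosomal RNA precursor Rn45s took 17.2% and 14.5% of counts in Lgr6-positive and 18.7% and 30.8% in Lgr6-negative libraries. It passed the test as lower in the Lgr6-positive population, by -1.13 on the log2 scale (SE 0.24, edgeR adjusted p = 0.0225). With Rn45s left out, the same numbers of the 10 genes were called, 1 higher and 3 lower. Lgr6 itself had 172 and 655 counts in Lgr6-positive and 3 and 10 counts in Lgr6-negative libraries, a difference that missed the threshold (log2 fold change 5.52, SE 1.47, edgeR adjusted p = 0.0510) and passed in 9 of 12 alternative settings, with adjusted p up to 0.349 when Lgr6-positive replicate 2 was left out. All 10 tested leukocyte marker genes were lower in Lgr6-positive cells, where their levels summed to 474 to 486 CPM (counts per 1000000, after TMM normalization of library sizes), against 8012 to 8874 CPM in Lgr6-negative cells. Of 12 tested macrophage and monocyte markers, 6 were lower and none was higher, with sums of 1614 to 1730 CPM in Lgr6-positive and 21295 to 22705 CPM in Lgr6-negative libraries. Luminal epithelial markers went the other way, with 13 of 16 higher and sums of 5415 to 5702 CPM in Lgr6-positive and 161 to 201 CPM in Lgr6-negative libraries. Of all genes tested, 4.49% were called higher and 4.57% lower in Lgr6-positive cells. No leukocyte or luminal marker was at 0 in both libraries of a population. Lineage panels often hold antibodies to CD45, the product of Ptprc, whose RNA stood at 48.3 and 23.4 CPM in Lgr6-positive and 1742 and 1190 CPM in Lgr6-negative libraries. In bulk samples fewer cells of a type and less RNA per cell cannot be told apart, and the part of these marker differences in each iron gene result was not tested.

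**Figure D1:**
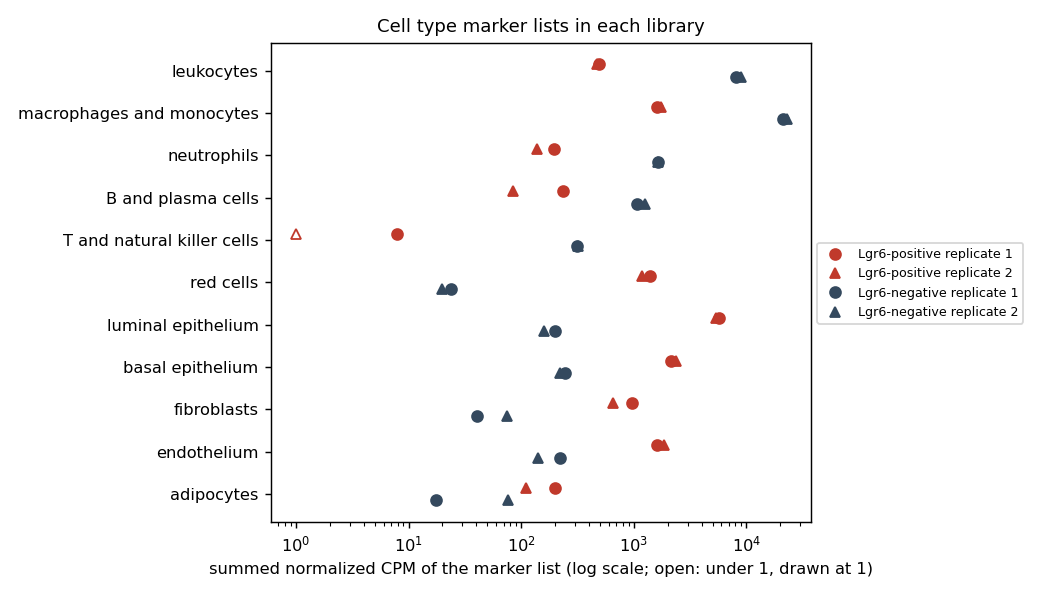
Summed normalized CPM (log scale) of 11 marker lists in each of the 4 libraries, Lgr6-positive in red and Lgr6-negative in dark blue, with circles for replicate 1, triangles for replicate 2 and an open symbol for a sum of 0 drawn at 1. Leukocyte lists lie to the right in Lgr6-negative libraries, and red cell, epithelial, fibroblast and endothelial lists lie to the right in Lgr6-positive libraries.

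Ferritin and haem oxygenase 1 transcripts were lower and transferrin transcripts were higher in Lgr6-positive cells. Of the 10 genes, Trf was higher, Fth1, Ftl1 and Hmox1 were lower, and Tfrc, Slc11a1, Slc11a2, Slc40a1, Ireb2 and Aco1 did not pass the test. The test was edgeR's quasi-likelihood test with a Benjamini-Hochberg adjusted p under 0.05 over all genes, which called 4.49% of all genes higher and 4.57% lower (9.06% together). The median log2 fold change (Lgr6-positive over Lgr6-negative) of the 10 genes was -0.29, against 0.10 for all genes tested. Normalized levels did not overlap between the populations for 6 of the 10, beside 56.0% of all genes (30.0% with Lgr6-positive libraries above, 25.9% below). With library sizes unadjusted, the median gene shifted upward by 0.45 on the log2 scale, and 1 of the 10 was higher and 2 were lower, beside 5.39% and 2.80% of all genes. DESeq2 called 2 higher and 3 lower, beside 12.1% and 8.60%, and leaving out Lgr6-positive replicate 2 gave the same counts, beside 5.25% and 5.92%. With a replicate block the counts were 1 and 3, beside 5.81% and 5.68%.

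**Figure D2:**
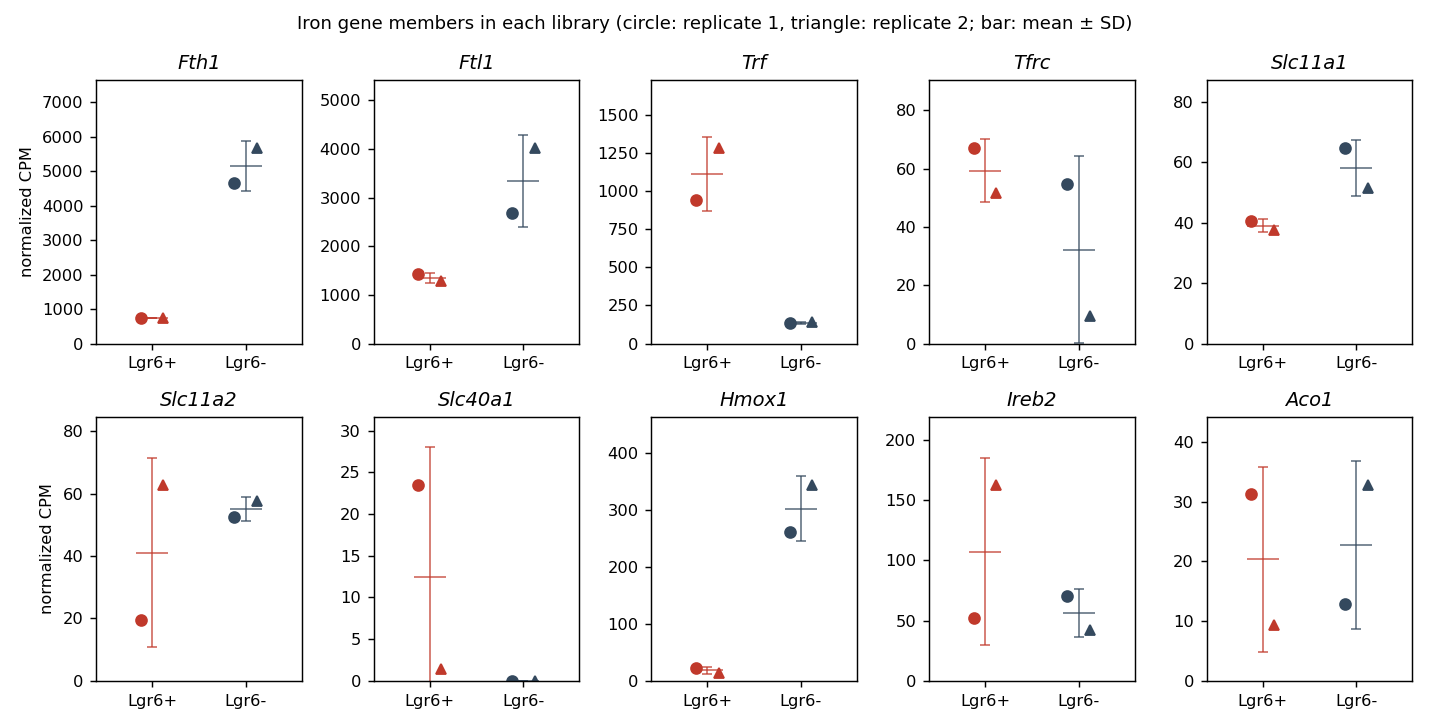
Normalized CPM of the 10 genes in each library, with its own linear axis from 0 in each panel; bars show the mean ± SD of 2 libraries. Lgr6-positive libraries lie clear of Lgr6-negative ones for Fth1, Ftl1, Hmox1 and Trf, while both overlap for Tfrc, Slc11a2, Ireb2 and Aco1.

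Fth1 encodes the ferritin heavy chain, which oxidises iron as it enters the shell. It had 5990 and 5797 counts in Lgr6-positive libraries and 29770 and 31866 counts in Lgr6-negative libraries. It ranked 81st and 89th by counts in the Lgr6-positive libraries, against 10th and 8th in the Lgr6-negative libraries. On the normalized scale both Lgr6-positive libraries stood at 735 CPM, and the Lgr6-negative libraries at 4645 and 5664 CPM. The populations did not overlap, and the log2 fold change was -2.81 (SE 0.22, edgeR adjusted p = 4.81e-04). Over 12 alternative settings it ran from -2.96 to -2.35 and passed in 12. The gene spans bases 9980598 to 9985098 of chromosome 19 on the plus strand, and 6.59% of the 50-base words in its transcript also occur in other annotated transcripts.

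Ftl1 encodes the ferritin light chain, which helps iron mineralise inside the shell. Its levels were 1423 and 1281 CPM in Lgr6-positive libraries and 2678 and 4018 CPM in Lgr6-negative libraries. Both Lgr6-positive values lay below both Lgr6-negative values, with a log2 fold change of -1.31 (SE 0.26, edgeR adjusted p = 0.0160). The call was lost under library-size scaling (-0.83, adjusted p = 0.0657), the highest of the 12 alternatives, the lowest being 1.71e-06. Ftl1 lies on chromosome 7 from 45457944 to 45459884, on the minus strand. Near-identical copies such as Ftl1-ps1 and Ftl2-ps carry 78.9% of the 50-base words of its transcript. These copies have no row in the table used here, so reads from them and from Ftl1 cannot be told apart. A gene model on the opposite strand, Gm10252, covers 36.7% of the transcript, and the strand setting is not given.

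The balance of the 2 ferritin chains did not overlap between the populations. Within a library, the ratio of Fth1 to Ftl1 counts does not depend on how libraries are scaled. It was 0.516 and 0.573 in Lgr6-positive libraries, against 1.73 and 1.41 in Lgr6-negative libraries. Light chain counts thus exceeded heavy chain counts in both Lgr6-positive libraries, and heavy chain counts exceeded light chain counts in both Lgr6-negative libraries. On the log2 scale the mean ratio was -0.88 ± 0.11 in Lgr6-positive and 0.64 ± 0.21 in Lgr6-negative libraries (SD, n = 2 each), a difference of -1.52 that ran from -1.67 to -1.37 when single libraries were left out. No test was run on this difference: an exact permutation test of 2 against 2 libraries cannot pass the threshold, and no model of the ratio was fitted. The limit on Ftl1 reads given above applies to this ratio too.

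**Figure D3:**
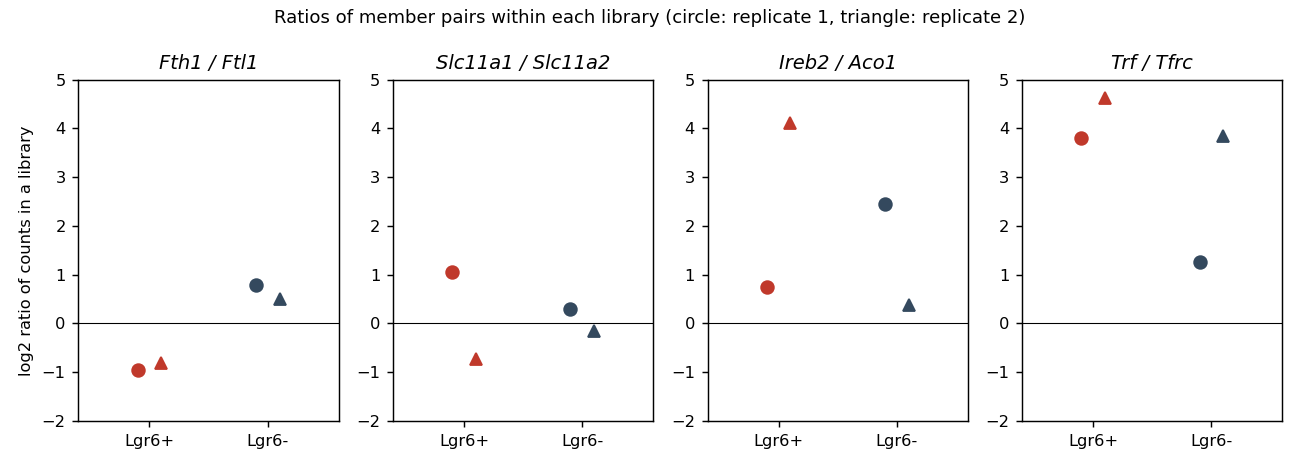
Log2 ratio of the counts of 4 gene pairs within each library, with circles for replicate 1 and triangles for replicate 2. For Fth1 over Ftl1 the Lgr6-positive libraries lie below 0 and the Lgr6-negative libraries above 0; the other pairs overlap between the populations.

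Hmox1, the stress-inducible haem oxygenase, showed the largest fall among the 10 genes. It had 189 and 112 counts in Lgr6-positive libraries and 1682 and 1932 counts in Lgr6-negative libraries. This corresponds to 23.2 and 14.2 CPM in Lgr6-positive cells and 262 and 343 CPM in Lgr6-negative cells, with no overlap. The log2 fold change was -4.02 (SE 0.56, edgeR adjusted p = 0.00365), and it ran from -4.42 to -3.54 over 12 alternatives, passing in 12. Hmox1 lies on chromosome 8 from 75093621 to 75100589, and none of its exonic bases are shared with other annotated genes. Its constitutive relative Hmox2 had 132 and 99 counts in Lgr6-positive and 169 and 18 counts in Lgr6-negative libraries, which overlap (log2 fold change -0.04, edgeR adjusted p = 0.994, with -0.89 to 2.14 over the alternatives).

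**Figure D4:**
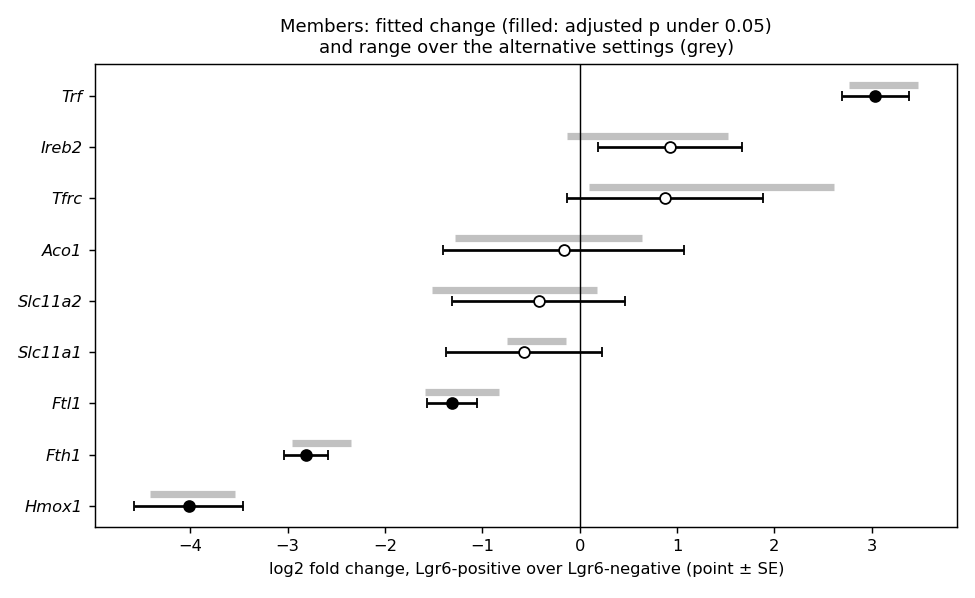
Log2 fold change (Lgr6-positive over Lgr6-negative) ± SE for the iron genes with counts in both populations, with filled points past an adjusted p of 0.05 and grey bars for the range over the alternative settings. Hmox1, Fth1 and Ftl1 lie below 0 and Trf above 0 with their whole grey bars, while the bars of Ireb2, Aco1 and Slc11a2 cross 0. The bars of Tfrc and Slc11a1 also keep to 1 side of 0, though neither gene passed in any setting. Slc40a1 is left out because it had no counts in Lgr6-negative libraries.

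Trf encodes transferrin, the iron carrier of plasma and milk. It had 7686 and 10115 counts in Lgr6-positive libraries, against 849 and 780 counts in Lgr6-negative libraries. In CPM these were 942 and 1282 in Lgr6-positive cells and 132 and 139 in Lgr6-negative cells. The populations did not overlap, and Trf was higher by 3.04 on the log2 scale (SE 0.34, edgeR adjusted p = 0.00152), with 2.77 to 3.48 over 12 alternatives, passing in 12. Trf spans bases 103204001 to 103230444 of chromosome 9 on the minus strand. A longer gene model on the same strand, Gm20425, holds 82.0% of its transcript bases and has no row in the table used here, so reads from both cannot be told apart.

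Tfrc, the transferrin receptor that proliferating cells and red cell precursors use to take up iron, did not pass the test. Its levels were 67.1 and 51.7 CPM in Lgr6-positive libraries and 54.9 and 9.60 CPM in Lgr6-negative libraries. The populations overlapped (log2 fold change 0.88, SE 1.005, edgeR adjusted p = 0.682). The estimate rested on single libraries, at 0.09 without replicate 2 and 2.61 without replicate 1 among Lgr6-negative libraries. Whether its change differs from that of Trf was not tested. The ratio of Trf to Tfrc counts was 14.1 and 24.8 in Lgr6-positive libraries and 2.41 and 14.4 in Lgr6-negative libraries, which overlap. Haemoglobin transcripts were also present in Lgr6-positive cells. Red cell markers summed to 1186 to 1395 CPM there and to 19.7 to 23.9 CPM in Lgr6-negative cells. Of 7 tested, 6 were higher, beside 4.49% of all genes. These 6 were all globin genes, of which Hbb-b2 and Hbb-bt hold identical counts. Klf1, Slc4a1 and Epb4.2, which mark red cell precursors or their membranes, had no counts in any library. In the same list, Epor, the erythropoietin receptor gene, had 8 and 5 counts in Lgr6-positive and none in Lgr6-negative libraries, and Alas2, an enzyme gene of haem synthesis in red cell precursors, had 176 and 87 counts in Lgr6-positive and 49 and 2 in Lgr6-negative libraries. The part of red cell RNA in the Tfrc values was not tested.

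Slc11a1 encodes a phagosomal metal transporter known from macrophages and neutrophils. It had 331 and 297 counts in Lgr6-positive libraries and 415 and 290 counts in Lgr6-negative libraries, or 40.6 and 37.6 CPM against 64.7 and 51.5 CPM. Its normalized levels did not overlap, which held for 56.0% of all genes tested, but the difference did not pass (log2 fold change -0.57, SE 0.80, edgeR adjusted p = 0.752). The leukocyte gene Ptprc (CD45), in contrast, fell by 5.35 on the log2 scale in the same libraries (SE 0.48, edgeR adjusted p = 5.80e-04), and the myeloid receptor gene Csf1r by 3.92 (SE 0.46, adjusted p = 0.00168). Whether the change of Slc11a1 differs from theirs was not tested.

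Slc11a2, the broadly expressed transporter of the same family, differed between the Lgr6-positive libraries. It reached 19.6 and 62.6 CPM in Lgr6-positive libraries, on either side of the 52.4 and 57.8 CPM of Lgr6-negative libraries. The fitted log2 fold change of -0.42 (SE 0.89, edgeR adjusted p = 0.845) became -1.52 with Lgr6-positive replicate 2 left out, 0.18 with Lgr6-positive replicate 1 left out and 0.0077 under library-size scaling, so no direction is given. The ratio of Slc11a1 to Slc11a2 counts was 2.07 and 0.601 in Lgr6-positive libraries and 1.24 and 0.892 in Lgr6-negative libraries, and neither transporter had the higher count in both libraries of a population.

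Slc40a1, which encodes the iron exporter ferroportin, was detected only in Lgr6-positive libraries. It had 191 and 11 counts there and no counts in either Lgr6-negative library, where 3 counts, taken as the floor, equal 0.468 and 0.533 CPM. Against that floor per library it was at least 24.8-fold higher, but the difference did not pass the test (edgeR adjusted p = 0.105). Nearly all of its counts came from replicate 1, and the bound falls to 2.78-fold without that library and is 46.8-fold without replicate 2. It passed in 2 of 10 alternatives, in DESeq2 (adjusted p = 0.0110) and without Lgr6-positive replicate 2. In edgeR with a replicate block the adjusted p was 0.220. With the stricter filter and without Lgr6-positive replicate 1, Slc40a1 had too few counts to be tested. Slc40a1 lies on chromosome 1 from 45908068 to 45926523, with no exonic bases shared with other genes.

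Macrophage and monocyte markers either were lower in Lgr6-positive cells or did not pass the test, and the examples here were named after their values were seen. Of 12 tested genes of the macrophage and monocyte list, 6 were lower in Lgr6-positive cells and none was higher, beside 4.57% and 4.49% of all genes. The lower genes were Csf1r, Cd68, Lyz2, Ccr2, Ly6c2 and Itgam. Of the 6 tested genes that did not pass, 4 had a log2 fold change above 0. The mannose receptor gene Mrc1 had 880 and 211 counts in Lgr6-positive and 131 and 86 counts in Lgr6-negative libraries. The complement gene C1qc had 218 and 68 counts in Lgr6-positive and 0 and 5 counts in Lgr6-negative libraries. Neither passed the test (edgeR adjusted p = 0.293 for Mrc1 and 0.185 for C1qc). Mertk was more even within Lgr6-positive libraries, at 96 and 69 counts, against 1 count in each Lgr6-negative library. It did not pass either (edgeR adjusted p = 0.132). Cd163, a haemoglobin receptor gene, had 7 and 28 counts in Lgr6-positive and 3 and 1 in Lgr6-negative libraries and fell below the filter. Adgre1 (F4/80) had 227 and 3 counts in Lgr6-positive and 375 and 565 in Lgr6-negative libraries and did not pass (edgeR adjusted p = 0.359). Fcgr1 had 30 and 1 counts in Lgr6-positive and 184 and 246 in Lgr6-negative libraries (adjusted p = 0.161). C1qb had 568 and 220 counts in Lgr6-positive and 238 and 40 in Lgr6-negative libraries, which overlap after normalization (adjusted p = 0.622). The part of macrophages and monocytes in the Slc40a1 counts was not tested. Spic, a transcription factor gene of iron-recycling macrophages in the spleen, had no counts in Lgr6-positive libraries and 78 and 81 counts in Lgr6-negative libraries, and missed the threshold (adjusted p = 0.0687).

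The iron regulatory protein genes showed no difference that exceeded the spread between libraries. Ireb2, which encodes the regulatory protein that is degraded when iron is plentiful, stood at 52.5 and 162 CPM in Lgr6-positive and 70.4 and 42.3 CPM in Lgr6-negative libraries. The log2 fold change was 0.93 (SE 0.74, edgeR adjusted p = 0.523), but -0.13 with Lgr6-positive replicate 2 left out. Aco1, whose product is a cytosolic aconitase when it holds an iron-sulphur cluster and an RNA-binding protein when it does not, stood at 31.3 and 9.38 CPM in Lgr6-positive and 12.8 and 32.7 CPM in Lgr6-negative libraries. The Aco1 estimate of -0.16 (SE 1.24, edgeR adjusted p = 0.966) took either sign when single libraries were left out, from -1.28 to 0.64, and was 0.36 under library-size scaling. The ratio of Ireb2 to Aco1 counts overlapped between the populations, at 1.68 and 17.3 in Lgr6-positive and 5.50 and 1.29 in Lgr6-negative libraries.

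Levels of different genes can be compared after division by transcript length, in CPM per kilobase. In Lgr6-positive cells the order began with Ftl1 at 1397 ± 104, Fth1 at 791 ± 0.0337 and Trf at 433 ± 93.3 CPM per kilobase, with the other 7 genes under 20 (SD, n = 2 libraries). In Lgr6-negative cells it began with Fth1 at 5549 ± 776, Ftl1 at 3459 ± 979 and Hmox1 at 193 ± 36.5 CPM per kilobase, followed by Trf at 52.7 ± 1.70. Fth1 and Ftl1 thus changed places. Below these, values of Ireb2, Slc11a1, Slc11a2, Tfrc and Hmox1 in Lgr6-positive cells lay between 11.9 and 18.6 CPM per kilobase with SDs up to 13.4, so their order is not resolved. Slc40a1 had the lowest mean in both populations, at 3.68 ± 4.62 CPM per kilobase in Lgr6-positive cells and without counts in Lgr6-negative cells. Among Lgr6-positive libraries it did not differ from Aco1 (5.30 ± 4.04) beyond their spread.

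A wider list of 79 iron and haem genes, chosen with earlier results of these data known, held 8 genes that passed the test, in 4 of its 7 roles. Of 62 tested, 6 were higher, 2 were lower and 54 did not pass, beside the 4.49% and 4.57% of all genes called. Their median log2 fold change was 0.33, against 0.10 for all genes tested.

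**Figure D5:**
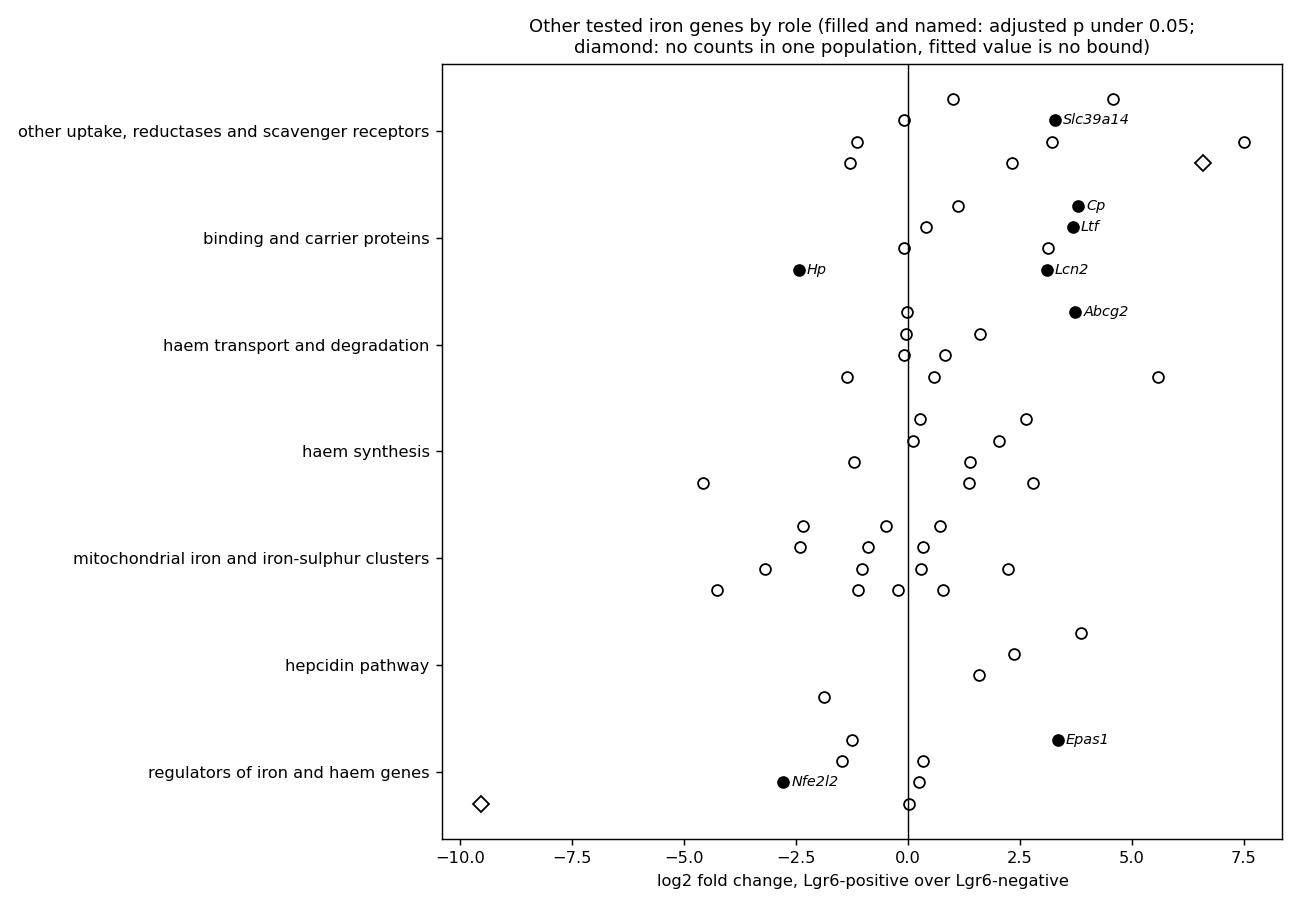
Log2 fold change (Lgr6-positive over Lgr6-negative) of 62 other tested iron genes by role, with filled and named points past an adjusted p of 0.05 and diamonds for genes without counts in 1 population. The named points are Slc39a14, Cp, Ltf, Lcn2, Abcg2 and Epas1 above 0 and Hp and Nfe2l2 below 0, and no gene of haem synthesis, mitochondrial iron or the hepcidin pathway is filled.

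Among binding and carrier proteins, 3 of 8 tested genes were higher and 1 was lower in Lgr6-positive cells, beside 4.49% and 4.57% of all genes. Ltf, which encodes the milk and neutrophil iron-binding protein lactoferrin, stood at 342 and 508 CPM in Lgr6-positive and 50.9 and 15.8 CPM in Lgr6-negative libraries (log2 fold change 3.67, SE 0.64, edgeR adjusted p = 0.00986). Lcn2, encoding lipocalin 2, which binds bacterial iron chelators, stood at 794 and 593 CPM in Lgr6-positive and 55.2 and 107 CPM in Lgr6-negative libraries (3.10, SE 0.46, adjusted p = 0.00448). The neutrophil markers S100a8 and S100a9 moved opposite to Ltf and Lcn2 and were lower in Lgr6-positive cells. In the neutrophil list, 6 of 8 tested genes were lower. Retnlg of that list had 79 and 149 counts in Lgr6-positive and none in Lgr6-negative libraries and did not pass (edgeR adjusted p = 0.0725). The part of neutrophil RNA in the Ltf and Lcn2 values was not tested. The ferroxidase ceruloplasmin gene Cp was at 249 and 223 CPM in Lgr6-positive and 20.9 and 13.2 CPM in Lgr6-negative libraries (3.79, SE 0.59, adjusted p = 0.00596). Hp, which encodes the haemoglobin scavenger haptoglobin, was lower, at 44.1 and 63.5 CPM in Lgr6-positive and 302 and 282 CPM in Lgr6-negative libraries (-2.44, SE 0.49, adjusted p = 0.0169). The libraries of the populations did not overlap for any of these 4 genes, which held for 56.0% of all genes tested. Each of the 4 passed in 12 of 12 alternatives. The ferritin cargo receptor gene Ncoa4 (1.12, adjusted p = 0.258) did not pass.

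Of 10 other uptake genes tested, 1 was higher, and of 9 haem transport and degradation genes, 1 was higher. Of all genes tested, 4.49% were called higher. Slc39a14, a zinc and iron importer gene, was at 101 and 117 CPM in Lgr6-positive and 11.7 and 10.8 CPM in Lgr6-negative libraries (log2 fold change 3.27, SE 0.78, edgeR adjusted p = 0.0346). It lost its call in limma-voom (adjusted p = 0.0660) and without either Lgr6-negative library, with a log2 fold change of 3.14 to 3.71 over the alternatives. Abcg2, a transporter gene active in mammary epithelium that exports haem precursors among many substrates, was at 64.9 and 93.3 CPM in Lgr6-positive and 6.71 and 5.15 CPM in Lgr6-negative libraries (3.73, SE 0.96, adjusted p = 0.0457). Its call was lost in 4 of 12 alternatives, with adjusted p up to 0.120 without Lgr6-positive replicate 2. Lrp1, the receptor for haem bound to haemopexin, had a value of -1.31 that missed the threshold (SE 0.35, adjusted p = 0.0534) and passed in 6 of 12 alternatives, with adjusted p from 0.00126 to 0.162. Scara5, a ferritin receptor gene, had 168 and 120 counts in Lgr6-positive and 1 and 0 counts in Lgr6-negative libraries and did not pass either (adjusted p = 0.0774).

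Among 8 regulators, Epas1 was higher and Nfe2l2 was lower in Lgr6-positive cells, beside 4.49% and 4.57% of all genes. Nfe2l2 encodes NRF2, a transcription factor that activates Hmox1, Fth1 and Ftl1 under oxidative stress. Its levels were 212 and 132 CPM in Lgr6-positive and 1227 and 1154 CPM in Lgr6-negative libraries (log2 fold change -2.79, SE 0.36, edgeR adjusted p = 0.00260), the same direction as those 3 genes. Any part of NRF2 in the values of Hmox1, Fth1 and Ftl1 was not tested. Bach1, a haem-sensing repressor gene of Hmox1, stood at 78.1 and 41.9 CPM in Lgr6-positive and 133 and 199 CPM in Lgr6-negative libraries and did not pass (-1.47, SE 0.59, adjusted p = 0.161). Epas1, encoding the oxygen-regulated factor HIF-2α that is abundant in endothelium, stood at 412 and 453 CPM in Lgr6-positive and 42.4 and 42.7 CPM in Lgr6-negative libraries (3.34, SE 0.44, adjusted p = 0.00279). Endothelial markers summed to 1595 to 1860 CPM in Lgr6-positive and 141 to 219 CPM in Lgr6-negative libraries, with 6 of 9 tested genes higher and none at 0 in both libraries of a population, and their part in the Epas1 result was not tested.

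No gene of haem synthesis (9 tested), mitochondrial iron and iron-sulphur cluster assembly (14 tested) or the hepcidin pathway (4 tested) passed edgeR's test in either direction. Of all genes tested, 9.06% passed. The smallest adjusted p-values among genes of these 3 roles were 0.0934 for the cluster assembly gene Nubp1 (log2 fold change -4.27, SE 1.39) and 0.166 for Neo1 (2.35, SE 0.97), whose product takes part in hepcidin control in the liver. Nubp1 passed in 4 of 12 alternatives and Neo1 in 1. The haem synthesis genes with the smallest p-values were Uros (-4.58, adjusted p = 0.286) and Alad (2.78, adjusted p = 0.381). Hamp, the hepcidin gene itself, fell below the filter with 43 and 6 counts in Lgr6-positive and no counts in Lgr6-negative libraries.

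The sequence search also gave genes outside the list. Of 12 tested genes with a 5′ UTR match other than Fth1, Ftl1 and Slc40a1, 1 was higher and 1 was lower in Lgr6-positive cells. Alas2, the red cell enzyme of haem synthesis whose mRNA is a known target of iron regulatory proteins, had 176 and 87 counts in Lgr6-positive and 49 and 2 counts in Lgr6-negative libraries and did not pass (log2 fold change 2.02, edgeR adjusted p = 0.586). Of 54 tested genes with a 3′ UTR match other than Tfrc, 3 were higher and none was lower. The shares of all genes called higher and lower were 4.49% and 4.57%.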

How the data were processed

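Expected counts, not scaled for depth, were deposited by the authors as a single gene table with 1 column per library. The submitters' processing notes name RSEM 1.2.22, STAR 2.4.2a and build mm10, but the sources used here give neither annotation nor strand setting. In each library 3.36% to 4.86% of values were fractional, and all were rounded to whole counts. No library was a copy of another (chi-square per degree of freedom 86.4 to 101 between replicates).

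The main test was the quasi-likelihood test of edgeR 4.0.16 (R 4.3.3) on population alone, with TMM factors, filterByExpr (minimum count 10, minimum total 15) and Benjamini-Hochberg adjustment over 11661 genes. Each SE was derived from the fold change and its F statistic (size of the log2 fold change divided by root F). The steps were also run on simulated counts in which all genes shared 1 dispersion, which does not show how they perform on these data. DESeq2 1.42.0, limma-voom (limma 3.58.1), other scalings, filters, a replicate block and leaving out each library were the alternatives. Positions, lengths and hairpin searches used GENCODE M21 (GRCm38, also called mm10). RefSeq synonyms matched 4 listed genes to older symbols.

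The genes and lists were chosen with earlier results of these data known. The rule for naming took the 10 genes and every other iron gene that passed. It also took, per role, the 2 with the smallest p-values among those that did not, and up to 3 of the most abundant markers per cell type. Not all of these are given in the text, and other genes were named after their values were seen. Amplified reads are not independent molecules, so floors cover counting error only.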

Additional observations from a re-analysis of the deposited data

How the results depend on the processing

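Under 12 alternatives, Fth1, Hmox1 and Trf kept their direction and their calls, and Ftl1 lost its call under library-size scaling. Trf was the 1 higher gene of the 10 except in DESeq2 and without Lgr6-positive replicate 2, where Slc40a1 made it 2; over the libraries left out the count was 1 to 2. Genes called in the whole table numbered 524 higher and 533 lower, against 967 and 854 with no filter and 1412 and 1003 in DESeq2, 327 lower under library-size scaling, and 678 to 956 higher and 540 to 1030 lower when single libraries were left out, the highest without Lgr6-positive replicate 1. Other iron genes called lower were 4 instead of 2 with no filter, with the stricter filter (minimum count 50), in DESeq2 and in limma-voom, and 2 to 4 when single libraries were left out. Estimates changed sign for 3 of the 10 genes and 19 of 62 other iron genes, none of which passed in any fit. Among the genes named by rule these were Slc11a2 (0.0077 under library-size scaling, -1.52 to 0.18 when single libraries were left out), Ireb2 (-0.13 to 1.52), Aco1 (0.36 under library-size scaling, -1.28 to 0.64, and 0.43 without Lgr6-positive replicate 2) and Heph (-0.25 in limma-voom, -6.38 to 4.09). The cause was not tested.

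With the replicate number as a block, 678 genes were higher and 662 lower, with 1 and 3 of the 10 iron genes among them, and 6 and 3 of the other iron genes. The labels give the number no meaning, and differences between replicates 1 and 2 correlated at -0.02 between the populations over 11661 genes. A lone library of a population was assumed to vary like the other population. The common dispersion was 0.795, and the SEs of Tfrc, Slc11a2, Ireb2 and Aco1 ran from 0.74 to 1.24 on the log2 scale.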
